A study of Homo sapiens with 11 samples.

Results

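Repeat annotation places 4537 stretches of the human genome in a class called snRNA, 0.0807% of the 5622516 repeat rows measured in RNA that was pulled down with the antibody J2, which binds double-stranded RNA. A row belongs here if its name begins with snRNA, and the field after that gives its family. The 12 families were U1 with 223 copies, U2 with 1111, U3 with 234, U4 with 161, U5 with 214, U6 with 1799, U7 with 250, U8 with 34, U13 with 179, U13_ with 316 (a repeat model of its own), U14 with 7 and U17 with 9. The label and the reads went apart. U3, U8, U13 (with U13_), U14 and U17 are small nucleolar RNAs, and their copies held 97.9%, 97.7% and 97.8% of the class's reads in the 3 libraries, against 2.12%, 2.27% and 2.17% on the spliceosomal families U1, U2, U4, U5 and U6.

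The cells were HCT116, an established human colorectal cancer line. All groups had been transfected with an siRNA, targeting luciferase as control (siLuc) or Staufen1 (siStau1), a protein that binds double-stranded RNA. They were labelled as given the solvent DMSO or decitabine (DAC), a nucleoside that blocks DNA methylation, at 500 nM for 5 days. For J2 there was 1 library of siLuc cells with DMSO, 1 of siLuc cells with DAC and 1 of siStau1 cells with DAC. For total RNA there were 2 libraries in each of 4 groups, which add siStau1 cells with DMSO; whether they came from separate cultures is not stated. J2 RNA of siStau1 DMSO was not analysed here. J2 is the antibody named for the enriched libraries, while the protocol text shared by all 11 libraries names an antibody to Staufen1. With 1 J2 library in each group, a difference between J2 libraries compares those libraries and has no replicate check. Neither a number of cells nor an amount of RNA in a cell can be read from these values, and fewer cells and less RNA per cell cannot be told apart.

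Small nuclear RNAs are short and strongly folded. U1 pairs with the start of an intron, U2 with its branch point, and U4, U5 and U6 join as a preassembled particle in which U4 is paired to U6 until the spliceosome becomes active. U7 guides the trimming of histone mRNA ends. Among the nucleolar RNAs, U3, U14 and U17 take part in making the RNA of the small ribosomal subunit and U8 in making that of the large subunit. Besides the active genes, the genome holds many imperfect copies of these RNAs, most of which are not known to be made. The row names gave no position, so no row was tied to a gene.

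The RNAs behind the results are shown as their reference genes, from the GENCODE 29 annotation of GRCh38, with each gene's own strand. U3 and U17 held the most J2 reads, and U1 and U4 genes were among those called in total RNA. U2 led the spliceosomal reads. Capitals mark TGATGA in SNORD3A (a U3 gene), the box C of this class, and ACA ahead of the last 3 bases of SNORA73A and SNORA73B (both U17 genes). In RNVU1-7 (a variant U1), RNU2-2P (U2), RNU4-1 and RNU4-2 (U4) they mark ATTTNTG, where the ring of Sm proteins sits.
SNORD3A: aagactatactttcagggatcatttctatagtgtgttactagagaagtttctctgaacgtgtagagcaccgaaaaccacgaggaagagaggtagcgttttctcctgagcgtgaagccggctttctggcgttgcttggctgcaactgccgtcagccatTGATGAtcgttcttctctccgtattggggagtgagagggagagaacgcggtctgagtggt
SNORA73A: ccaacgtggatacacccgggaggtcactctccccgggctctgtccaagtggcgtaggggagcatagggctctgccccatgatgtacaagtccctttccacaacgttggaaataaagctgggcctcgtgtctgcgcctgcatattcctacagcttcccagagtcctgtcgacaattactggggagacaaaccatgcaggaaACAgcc
SNORA73B: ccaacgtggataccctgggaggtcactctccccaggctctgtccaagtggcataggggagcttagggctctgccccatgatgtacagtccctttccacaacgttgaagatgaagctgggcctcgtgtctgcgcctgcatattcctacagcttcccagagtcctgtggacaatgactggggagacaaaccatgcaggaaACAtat
RNVU1-7: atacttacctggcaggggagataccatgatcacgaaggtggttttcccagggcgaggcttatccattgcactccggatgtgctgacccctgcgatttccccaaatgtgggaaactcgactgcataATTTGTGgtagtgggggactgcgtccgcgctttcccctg
RNU2-2P: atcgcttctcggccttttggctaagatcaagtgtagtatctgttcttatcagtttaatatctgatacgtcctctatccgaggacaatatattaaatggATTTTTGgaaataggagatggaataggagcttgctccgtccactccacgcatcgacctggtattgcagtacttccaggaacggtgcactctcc
RNU4-1: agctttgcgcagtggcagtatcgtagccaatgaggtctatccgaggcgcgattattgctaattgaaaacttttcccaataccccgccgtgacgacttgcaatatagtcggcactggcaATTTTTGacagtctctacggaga
RNU4-2: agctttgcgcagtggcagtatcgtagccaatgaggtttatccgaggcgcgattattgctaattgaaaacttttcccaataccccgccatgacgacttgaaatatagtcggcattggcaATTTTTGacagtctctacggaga

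SNORD3A lies at chr17:19188016-19188232 on the plus strand, by its transcript of 217 bases. SNORA73A lies at chr1:28507366-28507571 and SNORA73B at chr1:28508559-28508762, both on the plus strand. RNVU1-7 lies at chr1:148038753-148038916, RNU2-2P at chr11:62841619-62841809, RNU4-1 at chr12:120293097-120293237 and RNU4-2 at chr12:120291763-120291903, all on the minus strand. All 7 are noncoding genes. The SNORD3A gene as listed runs on to position 19188714 and has a longest transcript of 699 bases, so its sequence here is 1 transcript only. For the others the sequences are their exons. RNU4-1 and RNU4-2 differed at 4 of 141 positions, counted from 1 at the first base and with the base of RNU4-1 first: C37T, G88A, C99A and C113T. TGATGA occurred in 36.0% of 955 snoRNA transcripts of the annotation and in 2.199% of their reverse strands. ACA stood before the last 3 bases of 29.4% of the snoRNA transcripts (1.361% of reverse strands). Of 1900 snRNA transcripts, 27.2% held ATTTNTG (16.1% of reverse strands). These matches describe the letters only.

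The total on repeat rows was 71473124, 68944777 and 83037330 reads in the J2 libraries of siLuc DMSO, of siLuc DAC and of siStau1 DAC, the order of all triple values below. In total RNA, by the authors' deposited table, STAU1 stood at 35.5 FPKM (fragments per kilobase of length, scaled to depth) with siLuc and 30.0 with siStau1 under DMSO, and at 33.7 and 27.1 under DAC. The authors' deposited table did not call it in either comparison (q-values 0.767 and 0.685), so the knockdown is given as labelled. Of 6 markers of colon epithelium, EPCAM, KRT8, KRT18, CDH1 and CDX2 were between 2.76 and 3469 FPKM in every group and VIL1 was at most 0.198. Of 5 markers of other cells, ALB, HBB, PECAM1 and PTPRC were at most 0.820 FPKM, and COL1A1 (a collagen of fibroblasts) ran from 0.826 in siStau1 DMSO to 8.60 in siLuc DAC.

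The snRNA rows held 2126290, 1765228 and 2099482 reads. That was 2.97%, 2.56% and 2.53% of the reads on repeats (Wilson 95% intervals 2.97 to 2.98, 2.56 to 2.56 and 2.52 to 2.53, for counting error only). Among copies with few reads, even numbers were more frequent than odd ones (203, 228 and 212 copies held 2, 4 or 6 reads, and 132, 207 and 135 held 1, 3 or 5). Should pairs have been counted as separate mates, intervals here are too narrow by a factor of 1.41. Each interval also leaves out the spread between cultures.

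A single row named U3_2039 held 1791581, 1528971 and 1800420 reads, or 84.3%, 86.6% and 85.8% of the class. The next rows were U17_1675 with 142699, 94602 and 123425 reads and U17_1949 with 140144, 94406 and 121573. The pair of U17 rows kept nearly equal reads, with a ratio of 1.02, 1.00 and 1.02. U2_1574 followed with 29273, 25190 and 29236 reads, which was 90.0% of U2 over the 3 libraries. U4 was split between U4_1323, with 4552, 3379 and 3555 reads, and U4_1329, with 2659, 1888 and 1953, at a ratio of 1.71, 1.79 and 1.82. U3_2014 (3520, 2477 and 3150 reads) and U2_1747 (1384, 1120 and 1230) closed the list of 8 rows that led the class in reads. Together these 8 held 99.5%, 99.3% and 99.3% of the reads, and all of them belonged to U2, U3, U4 or U17.

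The other 4529 copies shared 10478, 13195 and 14940 reads. In all, 3542 copies (78.1%) had no read in any of the 3 libraries, which in 1 library allows up to 3 reads or 0.0420, 0.0435 and 0.0361 RPM (reads scaled in the usual RPM unit, here to the total on repeat rows). A read was found on 12.2%, 16.7% and 14.04% of the copies, against 23.6%, 24.8% and 26.0% of all repeat rows. At least 20 reads lay on 106, 143 and 134 copies, or 2.34%, 3.15% and 2.95%, against 7.04%, 7.30% and 8.12% of all rows. A smaller share of these copies than of all repeat rows was occupied, and 8 rows held nearly all of the reads.

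U3 stood at 25142, 22241 and 21751 RPM, and U17, an H/ACA RNA, at 3957, 2742 and 2951. U2 had 448, 412 and 393, and U4 had 111, 88.8 and 77.2. U1, the RNA of intron starts, had 41.5, 33.3 and 43.6, and U6, the catalytic RNA, 27.6, 41.9 and 28.7. U13 had 5.27, 10.5 and 8.21, U13_ 4.49, 10.8 and 7.96, and U14 3.68, 10.5 and 9.66. U5 had 3.67, 5.09 and 6.59, U7 2.85, 6.35 and 4.32, and U8 2.29, 2.25 and 2.90. The order of the 6 highest families in siLuc DMSO changed in siLuc DAC only by U6 passing U1. The lengths of the copies are not in the row names, so levels are not per base.

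**Figure D1:**
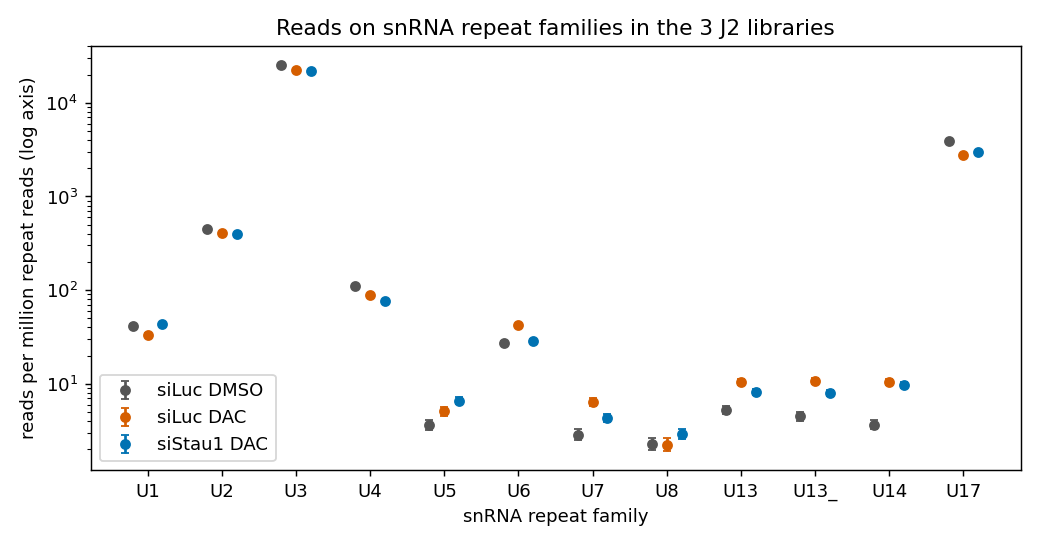
RPM over repeat reads (log axis) on each of the 12 snRNA repeat families, with 1 point for each of the 3 J2 libraries and bars for the Wilson 95% interval of the count. U3 lies highest at 25142, 22241 and 21751, and U5, U7, U8, U13, U13_ and U14 lie between 2.25 and 10.8.

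The number of rows behind a family's reads differed as much. In U3, U2, U8, U4 and U17, 1 copy gave 50% or more of the family's reads (99.7%, 90.0%, 86.8%, 56.2% and 50.3%). In U14 it took 2 copies to reach that share, in U13 3, in U5 and U7 4, in U13_ 5, in U1 6 and in U6 17. U6 had the most copies with reads, 191, 279 and 210 of 1799, a smaller share of its copies than in U1 or U14, and at least 20 reads on 22, 31 and 26. U1 had reads on 68, 53 and 71 of 223 copies, the fewest in siLuc DAC. In each of the other families siLuc DAC had the most occupied copies, except U8, with 3 in each library. U14 was the only family with a read on every copy in at least 1 library, with 5, 7 and 5 of 7.

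The first number in a row name is not explained in the sources used here. U3_2039, U17_1949 and U4_1329 carry the highest numbers of their families, although U17_1675 and U4_1323 had more reads than the latter 2. In U5, U6, U7, U13_ and U14 the rows with most reads (U5_646, U6_610_6, U7_266_2, U13__497 and U14_408) lie below the highest numbers of 1033, 1055, 536, 865 and 671. In U2 the highest number, 1772, is shared by 5 rows, of which 4 had no read in any library and U2_1772_5 had 83, 42 and 69. All 6 rows numbered 1764 in U2 were without reads, while U2_1574 held the family's reads. A read in at least 1 library was found on 16.5% of the 1007 U2 copies that share their number with another row and on 31.7% of the 104 with a number of their own. In U6 the shares were 20.7% of 1634 and 19.4% of 165. These shares were not tested. How reads that match several copies were counted is not given in the sources used here, so the division of reads among near-identical rows is uncertain.

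The first comparison set siLuc DAC against siLuc DMSO, and asked how the class moved with decitabine. On the scale of reads over each library's repeat total, U14, U13_, U7, U13, U6 and U5 were higher in siLuc DAC, and U17, U1, U4, U3 and U2 lower. The log2 ratios were 1.51 for U14 (counting interval 1.31 to 1.72), 1.26 for U13_ (1.07 to 1.46), 1.15 for U7 (0.91 to 1.40), 0.99 for U13 (0.81 to 1.18), 0.60 for U6 (0.52 to 0.69) and 0.47 for U5 (0.24 to 0.71). They were -0.53 for U17 (-0.54 to -0.52), -0.32 for U1 (-0.40 to -0.24) and U4 (-0.37 to -0.27), -0.18 for U3 (-0.18 to -0.17) and -0.12 for U2 (-0.14 to -0.10). U8, at -0.03, had an interval from -0.36 to 0.30. These values moved with single rows: without U1_1492 the U1 ratio was -0.089, and without U2_1574 the U2 ratio was 0.27. U3, U4 and U17 stayed below 0 without their top row, at -0.25, -0.24 and -0.52. The median over copies with at least 20 reads in the pair was above 0 in U1, U2, U3 and U4, at 0.11, 0.84, 0.54 and 0.05. The 6 families above 0 stayed above it under each of 4 scalings of the libraries, but the lowest value of U5, 0.16, was within counting error of 0. None of the other 6 kept 1 direction, because the authors' factors add 0.89 to every ratio and put all 12 families above 0. The differences between families do not depend on the scaling: U14 stood 1.69 above U3 on the log2 scale, U7 1.33 and U6 0.78 above it, and U17 stood 0.35 below it (-0.35).

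**Figure D2:**
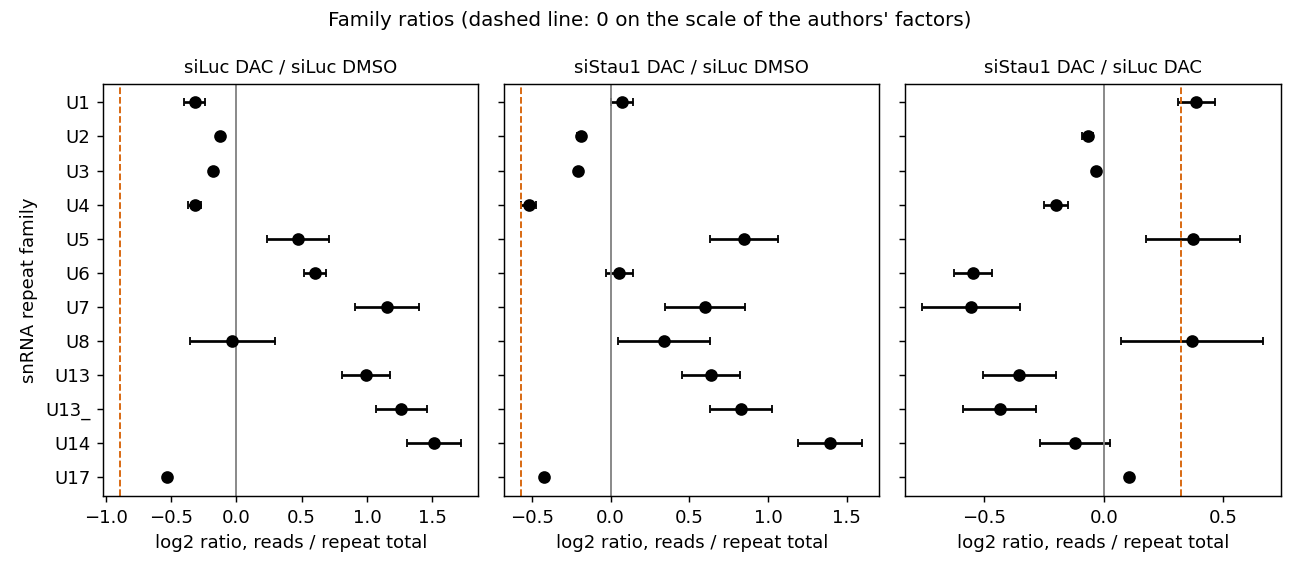
Log2 ratios of reads over each library's repeat total for the 12 families in the 3 pairs of J2 libraries, with bars for the 95% counting interval; the grey line is 0 and the dashed line is where 0 lies under the authors' factors. In siLuc DAC over siLuc DMSO, U17 is lowest at -0.53 and U14 highest at 1.51, and every family lies to the right of the dashed line.

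The 8 leading rows and the remaining copies went apart in the same way. On the scale of repeat totals, all 4906 repeat rows with at least 2000 reads in the pair had a median log2 ratio of -0.14. All 8 leading rows were lower in siLuc DAC on that scale. Their sum went from 29603 to 25412 RPM, a log2 ratio of -0.22, or 0.67 under the authors' factors. The other 4529 copies went from 147 to 191 RPM, a log2 ratio of 0.38 that ranged from 0.07 to 1.27 over the 4 scalings. The gap between the leading rows and the rest was 0.60 on the log2 scale, and no scaling changes it.

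Among the 203 copies with at least 20 reads in the pair, 77 (37.9%) were over 2-fold higher in siLuc DAC and 17 (8.37%) over 2-fold lower. Over all 604858 repeat rows with that many reads, 21.3% were over 2-fold higher and 17% over 2-fold lower. The median log2 ratio was 0.60, against 0.01 over all rows. Copies entered by the reads of the pair together, so a copy could enter through 1 library alone, as could any other row. With 1 library in a group, past 2-fold is a size and not a test. The shift went with depth: copies with 20 to 49 reads in the pair had a median of 1.09 (101 copies; 0.18 over all rows of that depth), those with 50 to 199 reads 0.52 (71 copies; -0.02 over all rows), those with 200 to 1999 reads 0.11 (23 copies; -0.16) and the 8 above that -0.41 (all rows -0.14). Under the authors' factors, 134 of the 203 copies were over 2-fold higher and 7 over 2-fold lower, where all rows gave 46.2% and 6.73%. By family, 20 of 40 such U2 copies, 19 of 48 of U6, 7 of 13 of U13 and 7 of 12 of U13_ were over 2-fold higher, and 6 of 36 of U1. In U1, 8 of 36 were over 2-fold lower, the highest number of any family.

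The named copies show these moves. U14_408 had 94, 358 and 353 reads, low in siLuc DMSO and alike in both DAC libraries, a log2 ratio of 1.98 in siLuc DAC (1.65 to 2.32). U14_671 had 106, 177 and 223 reads and U14_401 31, 117 and 145, so all 3 leading U14 rows were lowest in siLuc DMSO. U6_437 had 13, 88 and 60 reads, a log2 ratio of 2.81 (1.96 to 3.78). U2_227_5 had 19, 94 and 16 reads, high in siLuc DAC only, with a log2 ratio of 2.36 (1.64 to 3.15). U2_291_9, the third row of U2 by reads, had 138, 341 and 301. Among the 3 leading rows of U13, U13_703_3 had 147, 215 and 241 reads, U13_602_3 21, 69 and 72, and U13_638_2 20, 52 and 69. Among the 3 leading rows of U13_, U13__497 had 77, 144 and 134 reads, U13__593_2 53, 92 and 124, and U13__740_2 17, 44 and 63. All 6 of these rows were lowest in siLuc DMSO.

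The lowest ratios were in U1 and U2. U1_1492, the U1 row with the most reads, had 540, 96 and 343, a log2 ratio of -2.44 (-2.77 to -2.12) that stays below 0 under the authors' factors. U1_1163 had 391, 169 and 342 reads, a log2 ratio of -1.16 (-1.43 to -0.89). Both were lowest in siLuc DAC, while U1_1272, with 196, 306 and 332 reads, was lowest in siLuc DMSO. So rows of 1 family moved in opposite directions within a library pair. U2_1772_5, named above, gave -0.93 (-1.50 to -0.38). No copy had 100 reads or more in 2 libraries and none in the third. At 20 reads, chosen after the values were seen, U1_446 (33, 0 and 26 reads) and U2_282_13 (62, 0 and 51) were empty in siLuc DAC. The share of all repeat rows that meet either rule was not computed, so no excess or lack can be read from these rows.

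**Figure D3:**
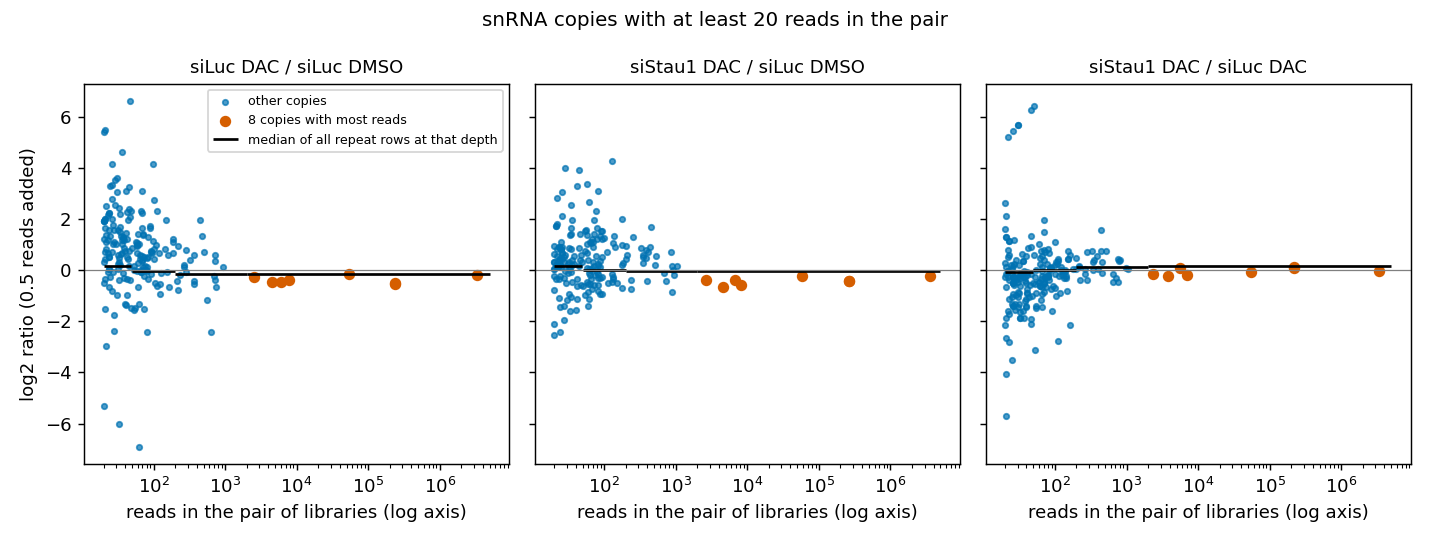
Each point is 1 snRNA copy with at least 20 reads in a pair of J2 libraries, by its reads in the pair (log axis) and its log2 ratio with 0.5 reads added; large points are the 8 copies with most reads and black bars the median of all repeat rows in 4 ranges of depth. In siLuc DAC over siLuc DMSO the large points lie below 0 (median -0.41; every ratio is 0.89 higher under the authors' factors), and the copies of 20 to 49 reads have a median of 1.09.

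The second comparison set siStau1 DAC against siLuc DMSO, which differ by both the siRNA and the drug. It shares the siLuc DMSO library with the first comparison, so likeness between them is not separate evidence. U14 had a log2 ratio of 1.39 (1.19 to 1.60), U5 0.85 (0.63 to 1.06), U13_ 0.83 (0.63 to 1.02), U13 0.64 (0.46 to 0.82), U7 0.60 (0.35 to 0.85) and U8 0.34 (0.05 to 0.63). These 6 stayed above 0 under all 4 scalings, but the interval of U8 includes 0 once it is widened for counted mates (-0.08 to 0.76), and without U8_1232 the U8 ratio was -0.68, from 33 and 24 reads. U4 had -0.52 (-0.57 to -0.47), U17 -0.42 (-0.43 to -0.42), U3 -0.21 (-0.21 to -0.21) and U2 -0.19 (-0.21 to -0.17), while U1 (0.07) and U6 (0.06, -0.03 to 0.14) lay near 0. Without U2_1574 the U2 ratio was 0.10. The authors' factors add 0.57 and again put all 12 families above 0. The 8 leading rows had a summed ratio of -0.24 and the other copies 0.30, from 0.21 to 0.86 over the scalings.

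Of 197 copies with at least 20 reads in this pair, 44 (22.3%) were over 2-fold higher in siStau1 DAC and 14 (7.11%) over 2-fold lower, against 14.5% and 8.27% of all 622296 rows. Under the authors' factors these counts were 82 and 6 of 197, where all rows gave 30.5% and 2.78%. The median was 0.24, against 0.04 over all rows. U2_319_4 had 5, 93 and 124 reads, scarce in siLuc DMSO and present in both DAC libraries, and gave the largest ratio of a copy with 100 reads in the pair, 4.42 (3.15 to 6.06). U14_401 gave 2.01 (1.44 to 2.62) and U14_408 1.69 (1.361 to 2.04). The lowest ratios were U1_1492 at -0.87 (-1.07 to -0.67), U2_1105 with 141, 80 and 99 reads at -0.73 (-1.11 to -0.35), and U6_645_4 with 103, 63 and 73 reads at -0.71 (-1.17 to -0.27). No copy of that depth was over 2-fold lower.

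The third comparison set siStau1 DAC against siLuc DAC, the pair that differs by the siRNA alone per the labels. It shares a library with each of the others. U1, U5 and U8 were higher in siStau1 DAC under all 4 scalings, with log2 ratios of 0.39 (0.31 to 0.46), 0.37 (0.18 to 0.57) and 0.37 (0.07 to 0.67). Their lowest values over the scalings were 0.066, 0.049 and 0.046, all under the authors' factors and all within counting error of 0. The widened interval of U8 is -0.06 to 0.80. U7, U6, U13_ and U13 were lower under all 4, with -0.56 (-0.76 to -0.35), -0.55 (-0.63 to -0.47), -0.44 (-0.59 to -0.28) and -0.35 (-0.51 to -0.20). Their values nearest to 0 were -0.21, -0.21, -0.096 and -0.013, on the srpRNA scaling, where those of U13_ and U13 are within counting error of 0. For the other 5 the direction depended on the scaling: U4 had -0.20, U14 -0.12, U2 -0.07, U3 -0.03 and U17 0.11. Scaling to the reads on the srpRNA rows, which are copies of the 7SL RNA, adds 0.34 to each ratio here, and the authors' factors take off 0.32 (a shift of -0.32).

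In that pair 20 of 223 copies (8.97%) were over 2-fold higher in siStau1 DAC and 40 (17.9%) over 2-fold lower, where all 644672 rows gave 15.5% and 14.8%. Under the authors' factors these counts were 13 and 55 of 223, where all rows gave 10.5% and 22.2%. The median was -0.18, against 0.03 over all rows. U6 had 4 copies over 2-fold higher and 9 lower of 49, U13_ 1 and 6 of 13, and U2 5 and 11 of 46. U2_227_5, high in siLuc DAC only, gave -2.82 (-3.69 to -2.05), and U6_701, with 57, 128 and 35 reads, -2.14 (-2.72 to -1.59). U1_889 had 37, 64 and 38 reads and gave -1.02 (-1.64 to -0.42). On the other side, U1_1492 gave 1.57 (1.24 to 1.91), U5_768 with 26, 28 and 73 reads 1.11 (0.47 to 1.80), and U1_1250 with 127, 108 and 222 reads 0.77 (0.43 to 1.12). U1 had 2967, 2297 and 3621 reads in all, lowest in siLuc DAC, and U5 had 262, 351 and 547, lowest in siLuc DMSO.

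The remaining named rows are each among the 3 with most reads in their families. U4_540 had 453, 472 and 593 reads, which set it apart from the 2 leading U4 rows, whose reads were highest in siLuc DMSO. U3_470 had 298, 435 and 561 reads, where U3_2039 and U3_2014 were lower in both DAC libraries per repeat read. U6_610_6 had 325, 406 and 352 reads and U6_1009_3 126, 141 and 252. In U5, U5_646 had 79, 73 and 124 reads and U5_588 63, 43 and 66. In U7, U7_266_2 had 37, 72 and 71 reads, U7_322 47, 72 and 46, and U7_536 35, 48 and 52. U8_1232 had 131, 138 and 217 reads, U8_472 29, 14 and 22, and U8_467 4, 3 and 2. U17_1300, the third U17 row, had 8, 10 and 10 reads, far under the 2 rows that lead the family.

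Other short structured RNAs in the same files moved by their own amounts. In siLuc DAC over siLuc DMSO the srpRNA rows had a log2 ratio of 0.08, the rows of class RNA, which hold 7SK, 0.05, the tRNA rows 0.52, the scRNA rows (Y RNA copies) 0.54 and the rRNA rows 1.57, where the snRNA rows had -0.22. In siStau1 DAC over siLuc DMSO these were -0.26, -0.20, 0.20, 0.28 and 0.64, with -0.23 for the snRNA rows. The rRNA rows held 1.01%, 2.996% and 1.57% of repeat reads. The SINE rows held 61.2%, 51.9% and 58.9%. Both changed along with the family ratios, and their part in them was not tested.

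Total RNA gave a second view of the same RNA families by gene. The authors' deposited table lists 1923 genes of these families or of the snRNA biotype, of which 1824 were listed at 0 in all 4 groups and 92 reached 1 FPKM in at least 1 group. The authors' deposited table tested only genes with enough signal in the pair, 67 of them in siLuc DAC against siLuc DMSO, so the tested genes are not a sample of all. It gives 1 value for each group of 2 libraries, with no spread, and genes this short depend on how length and near-identical copies were treated. None of the 149 U7 genes and 5 U14 genes was listed above 0, although both families had reads in the J2 libraries.

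In siLuc DAC against siLuc DMSO, the authors' deposited table called 11 of the 67 tested genes higher (16.4%) and 0 lower, where 8.71% and 4.78% of all 17504 tested genes were called higher and lower. At an unadjusted p under 0.05 there were 19 of the 67. Their median log2 ratio was 1.80, with 61 above 0, against 0.23 for all tested genes. RNU4-1 had 1898 FPKM in siLuc DMSO and 7149 in siLuc DAC in the authors' deposited table (q-value 0.00162), and RNU4-2 had 1927 and 6063 (q-value 0.00162). SNORA73A had 2716 and 15398 FPKM (q-value 0.0393), while SNORA73B, at 1796 and 9296, was not called in the authors' deposited table (q-value 0.253). The variant U1 gene RNVU1-7 had 116 and 617 FPKM (q-value 0.00162) and RNVU1-6 had 107 and 538 (q-value 0.00917), by the authors' deposited table. A pair of U1-like genes that carry only the name RF00003, the U1 family of the Rfam collection, had 2485 and 10109 FPKM at chr1:145465617-145465780 and 2074 and 7978 at chr1:144560666-144560829, with q-values of 0.00162 by the authors' deposited table. The other calls were another RF00003 gene, at chr1:148522601-148522765 (127 and 442 FPKM), the U1 gene RNU1-3 (265 and 1055) and the U3 genes SNORD3B-1 (809 and 2104) and SNORD3C (379 and 996), with q-values of 0.0326, 0.0366, 0.002935 and 0.0187 in the authors' deposited table. SNORD3A, the most abundant gene of the class, had 207319 and 267692 FPKM and was not called (q-value 0.932 in the authors' deposited table), nor were RNU2-2P (2688 and 4624, q-value 0.283) and RNU5E-1 (1377 and 3000, q-value 0.446). RN7SK, which the annotation files under snRNA, had 80918 FPKM in siLuc DMSO and was listed at 0 in siLuc DAC. The authors gave no test of it in this pair. It had 110208 FPKM in siStau1 DMSO and 202720 in siStau1 DAC, so a loss with the drug cannot be read from that entry.

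**Figure D4:**
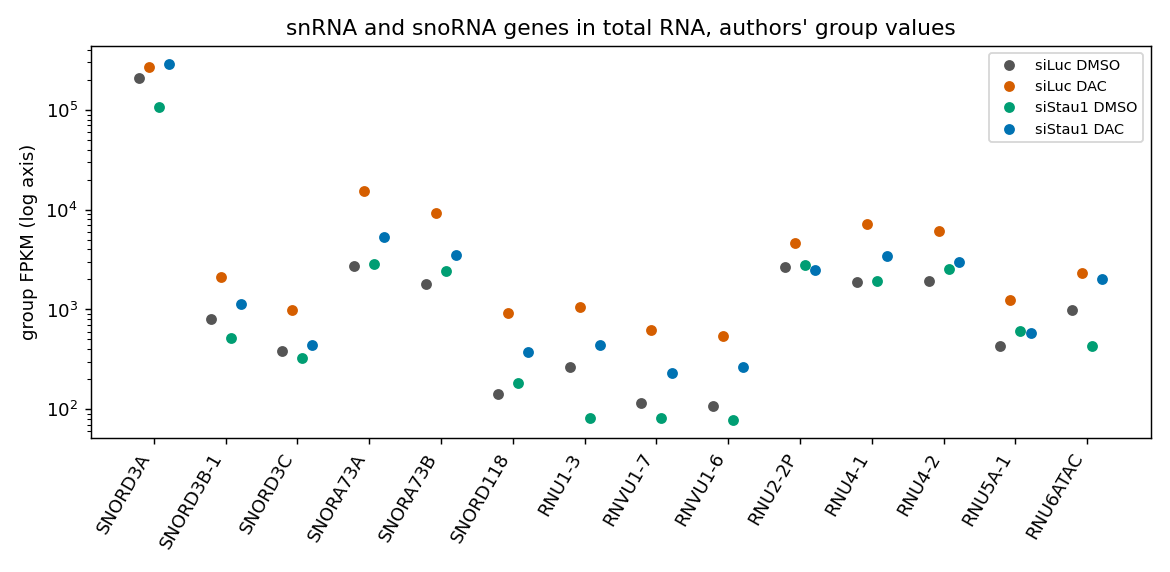
Group FPKM (log axis) of 14 snRNA and snoRNA genes in the 4 total RNA groups, from the authors' deposited table. Each point is 1 group of 2 libraries and has no error. The genes were picked from families with signal and include most of those called higher in siLuc DAC. How many are highest there thus follows in part from the choice. Of the 67 class genes tested in siLuc DAC against siLuc DMSO, 61 had a log2 ratio above 0. RNU1-85P (234 FPKM in siLuc DMSO and 188 in siLuc DAC) and RNU2-63P (165 and 124) were lower and are not shown. U6 and RF00003 genes are not shown, nor are SNORD13 (a U13 gene) and RN7SK, both listed at 0 in siLuc DAC. siLuc DAC is highest in 13 of the 14; for SNORD3A siStau1 DAC is highest at 291331.

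Side by side, U4 and U17 stood lower in the J2 library of siLuc DAC than in that of siLuc DMSO (111 to 88.8 and 3957 to 2742 RPM). They stood higher in total RNA by the authors' deposited table (summed FPKM of U4 genes 3826 to 13212, of U17 genes 4512 to 24695). U1, U2 and U3 went the same way (41.5 to 33.3, 448 to 412 and 25142 to 22241 RPM, summed FPKM 1435 to 4274, 2883 to 4798 and 208529 to 270855). The U1 sum leaves out the U1-like RF00003 genes, of which the 2 most abundant went from 2485 to 10109 and from 2074 to 7978 FPKM. U5 and U6 were higher in both. U8 was near level in J2 (2.29 to 2.25 RPM) and higher in FPKM (141 to 917). U13 was higher in J2 (5.27 to 10.5 RPM), while SNORD13, the only U13 gene listed above 0 in any group, went from 108 FPKM to 0. SNORD13 was also listed at 0 in both siStau1 groups, and the authors did not call it (Cuffdiff q-value 0.582). No gene of U2, U5, U6 or U8 was called in this comparison either. The J2 values are relative to repeat reads and FPKM to all fragments of the group, so the scales differ. FPKM summed over all genes also rose, from 1129080 in siLuc DMSO to 1793610 in siLuc DAC. A family with higher FPKM, such as U3, therefore need not hold a higher share of that sum. All genes of the class together held 27.7% and 19.6% of it, with RN7SK listed at 0 in siLuc DAC. Under the authors' factors every family was higher in J2. The difference between J2 and total RNA was not tested.

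In siStau1 cells, DAC against DMSO gave 4 calls higher and 0 lower among 66 tested genes in the authors' deposited table (6.06%; all 16979 tested genes gave 4.56% higher and 2.89% lower), with 13 at an unadjusted p under 0.05. The median log2 ratio was 1.06, against 0.11 over all tested genes. The U1-like RF00003 gene at chr1:145465617-145465780 had 896 FPKM with DMSO and 4711 with DAC, and the other had 895 and 3754, with q-values of 0.00162 in the authors' deposited table. RNU6ATAC, the U6 partner of the minor spliceosome, had 431 and 2003 FPKM (q-value 0.00525), and the U3 gene SNORD3B-1 522 and 1124 (q-value 0.0488), by the authors' deposited table. RNU4-1 (1936 and 3450 FPKM, q-value 0.266) and RNU4-2 (2529 and 2980, q-value 0.833) were not called in the authors' deposited table. Whether the drug's effect on these genes differed between siLuc and siStau1 cells was not tested.

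The siRNA comparisons gave few calls. With DMSO, the authors' deposited table called 0 higher and 2 lower of 62 tested genes (3.23%; all 15893 tested genes gave 0.333% higher and 0.466% lower), both the RF00003 genes named above, from 2485 to 896 FPKM and from 2074 to 895 (q-values 0.0296). With DAC it called 0 higher and 6 lower of 70 (8.57%; all 17263 tested genes gave 0.434% higher and 0.469% lower). These were both RF00003 genes, a pair of U3 genes and both U4 genes. SNORD3B-2, of U3, went from 62.1 FPKM with siLuc to 24.0 with siStau1 (q-value 0.0134), SNORD3C from 996 to 439 (q-value 0.0254), RNU4-1 from 7149 to 3450 (q-value 0.0393) and RNU4-2 from 6063 to 2980 (q-value 0.0308), by the authors' deposited table. At an unadjusted p under 0.05 there were 6 of 62 and 13 of 70 genes. None of these 8 calls remained when the authors' p-values were adjusted within their own comparison in place of all comparisons together.

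The proteins of these particles were followed in 91 genes of 7 lists. By the authors' deposited table, siLuc DAC against siLuc DMSO had 15 of the 91 called lower (16.5%) and 3 higher (3.30%), against the 4.78% and 8.71% of all tested genes, and their median log2 ratio was -0.24, against 0.23 over all tested genes. When ratios were centred among protein-coding genes of like GC content, an alternative added after seeing the data, the median of the 91 was -0.26. Centred values here and below are relative to the median of genes of like GC. The uncentred -0.24 is to be read beside the 0.23 of all tested genes. The Sm core, the ring of proteins that U1, U2, U4 and U5 share, had 4 of 7 genes lower and a median of -1.30, or -0.53 with that centring. SNRPG had 655 FPKM in siLuc DMSO and 134 in siLuc DAC, SNRPE 358 and 105, and SNRPF 97.8 and 35.6, with q-values of 0.00162 by the authors' deposited table. The ring did not move as 1: SNRPB (237 and 342 FPKM) and SNRPD2 (660 and 939) were higher in siLuc DAC and not called. Of 20 genes for the export, assembly and import of snRNA particles 5 were lower, with GEMIN2 at 32.6 and 8.33 FPKM (q-value 0.00732) and SMN1 at 12.9 and 2.98 (q-value 0.00162), both of the complex that loads Sm proteins, by the authors' deposited table. SMN2, a near-identical copy of SMN1, had 7.80 and 2.33 (q-value 0.0208 in the authors' deposited table), so how reads were split between them is not certain.

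Of 13 genes that bind or process U6, 3 were lower and 1 higher in siLuc DAC by the authors' deposited table. SSB (La, which holds the ends of new U6) had 68.3 and 17.2 FPKM, LSM5 157 and 40.5 and LSM6 89.3 and 31.5 (both of the ring on U6), with q-values of 0.00162, 0.00162 and 0.0187 in the authors' deposited table. MEPCE, the capping enzyme of 7SK, had 13.03 and 29.1 FPKM (q-value 0.0214). Of 22 proteins specific to 1 particle 3 were lower: SNRPB2 (of U2) at 57.3 and 12.8 FPKM, PPIH (of the U4/U6 particle) at 145 and 67.3, and SNRNP40 (of U5) at 135 and 70.0, with q-values of 0.00162, 0.0180 and 0.0343 in the authors' deposited table. RRP9, which binds U3, was higher at 41.4 and 92.1 FPKM (q-value 0.0118), the only call among 5 U3 proteins, and SNAPC4, a subunit of the factor that starts snRNA genes, was higher at 5.44 and 19.1 (q-value 0.0149), the only call among 19 genes for making snRNA, by the authors' deposited table. None of the 5 genes of the U7 particle and histone mRNA ends was called in this comparison, with 4 at an unadjusted p under 0.05.

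**Figure D5:**
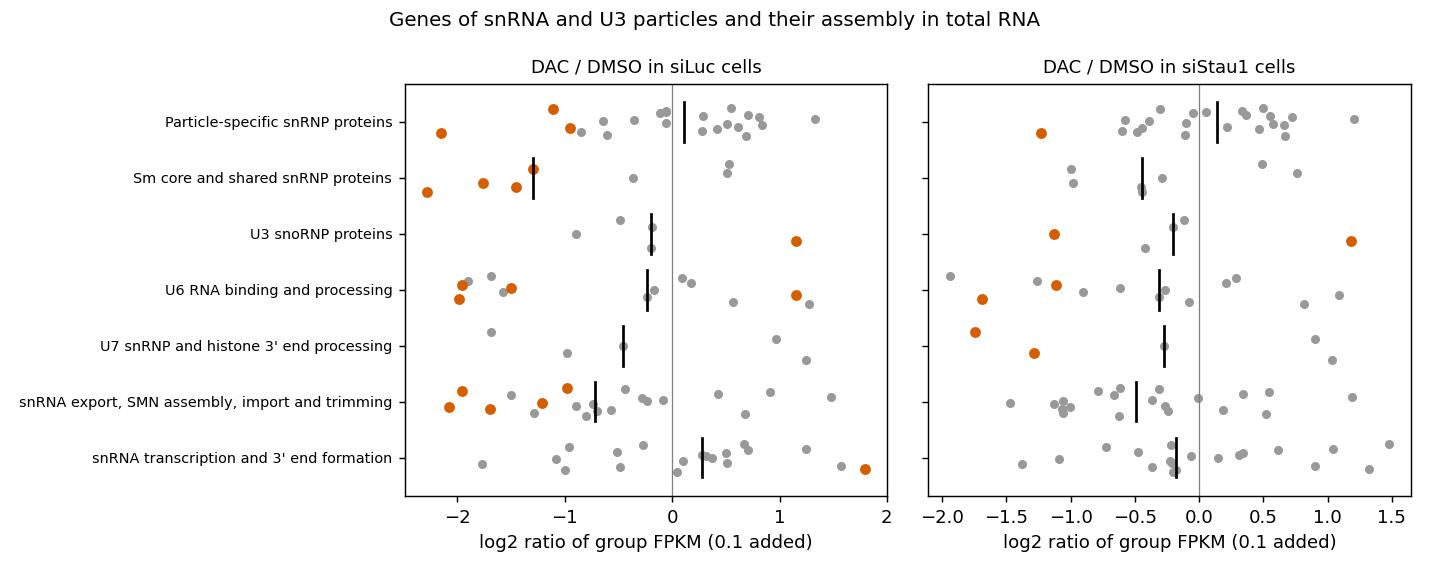
Log2 ratios of group FPKM (0.1 added), DAC over DMSO, for 91 protein genes in 7 lists, in siLuc cells (left) and siStau1 cells (right); coloured points are genes the authors called at a q-value under 0.05, and black bars are the median of each list. The Sm core has the lowest median in siLuc cells at -1.30, where 4 of its 7 genes were called.

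In siStau1 cells the authors' deposited table called 6 of the 91 genes lower (6.59%) and 1 higher (1.10%) with DAC, against 2.89% and 4.56% of all tested genes, and the median was -0.22, against 0.11 over all tested genes. SSB had 121 FPKM with DMSO and 37.5 with DAC (q-value 0.00162), LSM5 157 and 72.8 (0.0388), SNRPB2 69.9 and 29.7 (0.0285) and RRP9 27.9 and 63.4 (0.0208), by the authors' deposited table. CASP8AP2 and SLBP, both for histone mRNA, had 16.7 and 4.93 FPKM (q-value 0.00162) and 190 and 78.0 (q-value 0.0455), and NOP58, a core protein of U3 particles, 163 and 74.5 (q-value 0.0338). No Sm core gene was called there, with 3 of 7 at an unadjusted p under 0.05 and a median of -0.44, or -0.07 with the GC centring. The siRNA comparisons called 0 of the 91 genes in the authors' deposited table with either solvent or drug, with 5 and 11 genes at an unadjusted p under 0.05 and medians of -0.11 and -0.01.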

How the data were processed

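J2 RNA was measured in 3 libraries and total RNA in 8, all from HCT116 cells. Per the submitters' processing notes, bcl2fastq 2.20, HISAT2 2.1.0, featureCounts, DESeq 1.36.0, Cuffdiff 2.2.1 and Cuffnorm 2.2.1 were used with build hg38; which step made which file, and how multiply matching reads were counted, is not given in the sources used here. The siLuc DMSO column was deposited as whole-number read counts plus 1 on each repeat row. The siLuc DAC and siStau1 DAC columns were deposited as a signal, which is reads plus 1 times a factor of 1.92 or 1.27 whose origin is not given in the sources used here. Dividing by the lowest value and subtracting 1 gave whole reads for 100% of the values (tolerance 0.001). The total RNA table holds group FPKM that the authors estimated, with no value for a library, and the p-values and q-values of the authors' Cuffdiff tests.

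Reads were scaled to each library's total on repeat rows. Ratios of single copies in counts and medians had 0.5 reads added; ratios printed for named families and copies were taken on the reads themselves. Intervals were 95% (Wilson for shares, binomial for ratios). A copy was counted where the pair held at least 20 reads and the ratio passed 2-fold. Copies were named as the 3 with most reads in each family and the 3 with the highest and lowest ratios among those with 100 reads in a pair; for total RNA, the 10 highest snRNA genes and up to 3 called genes in each list and direction were named, besides further called snRNA genes chosen after their values were seen. Median ratios of FPKM had 0.1 added. Calls were q-values under 0.05 as the authors gave them. Members and gene lists were chosen with earlier results of these data known. All 58699 genes matched GENCODE 29. The code was tested on simulated data. Python 3.11.15, numpy 2.4.6, scipy 1.17.1, pandas 2.3.3 and matplotlib 3.10.9 were used. Alternatives covered scaling, read minimums, the leading copy, pseudocounts and q-value limits.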

Additional observations from a re-analysis of the deposited data

How the results depend on the processing

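With 1 J2 library in each group and 1 FPKM for each total RNA group, no spread between cultures could be measured. No paired analysis was possible because the table gives 1 value for each group; leaving out a replicate could not be run for the same reason. The snRNA share of 2.97%, 2.56% and 2.53% became 7.67%, 5.32% and 6.15% of reads outside SINE rows, and 0.468%, 0.343% and 0.360% without U3_2039. In the order of the 3 comparisons in the report, the log2 ratios of all snRNA reads (-0.22, -0.23 and -0.02) became 0.67, 0.33 and -0.34 under the authors' factors, -0.53, -0.32 and 0.21 with totals outside SINE, -0.45, -0.38 and 0.072 without the top copy, 0.60, 0.24 and -0.18 as medians over copies, and -0.30, 0.028 and 0.32 on srpRNA rows. Those of U1, U2, U4, U5 and U6 together (-0.12, -0.20 and -0.08) became 0.77, 0.37 and -0.40, then -0.43, -0.28 and 0.15, then -0.041, -0.17 and -0.13, then 0.44, 0.15 and -0.15, and -0.20, 0.061 and 0.26 under the same settings. The srpRNA scaling and the GC centring were chosen after seeing the data. Copies over 2-fold higher and lower in the 3 comparisons numbered 137 and 32 of 322, 87 and 28 of 303, and 48 and 94 of 358 at 10 reads, where all rows gave 26.0% and 19.8%, 19.8% and 11.8%, and 19.4% and 19.6%. At 50 reads they numbered 23 and 8 of 102, 28 and 2 of 110, and 6 and 9 of 120 (all rows 14.3% and 13.96%, 8.66% and 4.24%, and 11.2% and 8.71%). At 100 reads they numbered 8 and 2 of 50, 7 and 0 of 50, and 2 and 3 of 64 (all rows 10.3% and 11.9%, 5.54% and 1.92%, and 8.74% and 5.34%). Under the authors' factors they numbered 134 and 7, 82 and 6, and 13 higher in the third. Copies with reads (106, 143 and 134 at 20 reads) numbered 475, 633 and 558 at 2 reads, 167, 249 and 234 at 10, and 30, 32 and 39 at 100. At a q-value under 0.01, the snRNA genes higher with DAC in siLuc cells numbered 7, the protein genes 0 higher and 9 lower, and in siStau1 cells the protein genes 0 higher and 2 lower. Adjusted within the comparison, the protein genes higher in siLuc cells numbered 5. The snRNA genes lower in siStau1 cells (2 with DMSO, 6 with DAC) numbered 0 and 0 at a q-value under 0.01, and 0 and 0 adjusted within the comparison. The cause of these changes was not tested. The medians of the snRNA genes and of the 91 protein genes kept their sign with 1 or 0.01 FPKM added. With GC centring that of the protein genes was -0.07 for DAC in siStau1 cells (-0.22 without).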
